A study of Mus musculus with 8 samples.

Results

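The genes described here are 52 genes of S phase and mitosis, 19 that act in DNA replication and 33 that act in mitosis. They were taken from a list of cell cycle genes, and each gene was represented by the probe set that carries its symbol alone and has the highest mean over the arrays. On these arrays 50 of the 52 were measured among 22180 genes, 18 of the replication genes and 32 of the mitotic genes. Ccne2 was covered only by a probe set shared with Ints8, and Ccnb1 had no probe set with its symbol alone, so neither has a value.

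RNA came from glomeruli isolated from mouse kidneys and was hybridised to 8 Affymetrix arrays. All animals were 13 weeks old and had received doxycycline for 3 weeks from 8 weeks of age. The 2 control arrays carry no other treatment in their labels, which do not say whether these mice received vehicle or carried any of the alleles. The other groups are of the genotype Tln1 Pod-rtTA TetO-Cre and were given vehicle (3 arrays, Tln1 vehicle) or valproic acid (3 arrays, Tln1 VPA) for 2 weeks after the doxycycline. By its name, that genotype carries a doxycycline-switched Cre driven in podocytes, the epithelial cells of the filtration barrier, and acts on Tln1. Tln1 encodes talin 1, which links integrins to actin. Any cell without podocyte Cre keeps its Tln1 in this model, and valproic acid, an inhibitor of histone deacetylases, was given only to mice that carry the Cre. The series text calls its mice control and proteinuric. Nothing in the labels says that the arrays of a group are separate animals, so a p-value here reflects only the spread among these arrays, and that spread may be technical.

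Cells copy their DNA once in S phase. MCM helicases are loaded at origins in G1, Cdc6 helps to load them, Cdc45 and the GINS complex turn them into moving helicases, Pcna clamps the polymerases, and Rrm1, Rrm2, Tk1 and Tyms supply deoxynucleotides. In mitosis cyclins and Cdk1 start the process, spindle motors and kinetochores pull the chromosomes apart under a checkpoint, the chromosomal passenger complex and centralspindlin divide the cell, and the APC/C ubiquitin ligase ends it. E2F factors drive replication genes at G1/S, and the DREAM and MuvB complexes with Mybl2 and Foxm1 act on mitotic genes through CHR elements near the start of transcription. Podocytes are known as cells that do not normally divide.

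Promoters were set beside the arrays because the replication and mitotic genes are known to differ in these elements. RefSeq promoter windows on GRCm38.p6 run from 250 bases before to 50 bases after the start and were found for 43 of the 50 measured genes. Short words were searched on both strands. The CHR was searched as TTTGAA, and the second word, bound by NF-Y, was CCAAT. An E2F core was counted where the window held TTGGCGC. The spelling TTCCCGC was counted as an E2F core too. So was a window with TTGCCGC in it, and the last spelling searched was TTCGCGC. The words can overlap, as the reverse complement of CCAAT does with the E2F core that begins with TTGG. Sequences are shown 5′ to 3′ on the gene's strand with these words, or their reverse complements, in capitals. They end at the outermost start that RefSeq gives for the gene, while all positions are counted from the start that the window is built on. The window's start lies 10 bases past the printed end in Top2a and 71 bases past it in Mki67, and at the printed end in the others. The promoters of Rrm2, Top2a and Mki67 are shown as those of the replication gene and the 2 mitotic genes with the smallest p in Tln1 VPA against Tln1 vehicle among genes whose window holds an E2F core, for the replication gene, or both a CHR and a CCAAT, for the mitotic genes. Rrm2 lies at chr12:24708004-24708253, plus strand, Top2a at chr11:99024200-99024439, minus strand, and Mki67 at chr7:135716451-135716629, minus strand.
Rrm2: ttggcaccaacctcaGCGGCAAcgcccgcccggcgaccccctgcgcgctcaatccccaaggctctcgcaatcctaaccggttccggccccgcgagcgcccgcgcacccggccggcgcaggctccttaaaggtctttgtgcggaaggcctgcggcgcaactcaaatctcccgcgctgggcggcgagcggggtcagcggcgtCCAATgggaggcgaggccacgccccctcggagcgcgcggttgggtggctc
Top2a: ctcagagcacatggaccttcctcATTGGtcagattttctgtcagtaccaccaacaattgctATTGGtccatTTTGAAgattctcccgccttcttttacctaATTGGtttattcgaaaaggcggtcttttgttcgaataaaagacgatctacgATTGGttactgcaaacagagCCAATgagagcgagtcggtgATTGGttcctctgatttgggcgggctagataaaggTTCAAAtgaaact
Mki67: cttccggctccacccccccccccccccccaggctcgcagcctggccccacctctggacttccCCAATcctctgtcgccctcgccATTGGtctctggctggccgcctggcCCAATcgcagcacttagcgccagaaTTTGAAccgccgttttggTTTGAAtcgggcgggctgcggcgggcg
The E2F core of Rrm2 begins 235 bases before the start, and its CCAAT begins 50 bases before it. Top2a holds 6 CCAAT words and a CHR at 179 and at 23 bases before the window's start. Both CHR words of Mki67 lie at 116 and 98 bases before the window's start, and an E2F core at 67 bases falls in its unprinted part.

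Shorter stretches, chosen after the windows had been seen, show the arrangement that recurred in mitotic genes, a CHR close to the start with a CCAAT before it. Kif11 lies at chr19:37376302-37376381, plus strand, Cdc20 at chr4:118437344-118437423, minus strand, Cdk1 at chr10:69352913-69352992, minus strand, and Ube2c at chr2:164769849-164769928, plus strand. Mcm6, at chr1:128359706-128359825, minus strand, is shown for its pairs of overlapping E2F cores.
Kif11: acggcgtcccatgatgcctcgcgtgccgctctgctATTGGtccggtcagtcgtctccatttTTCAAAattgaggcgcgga
Cdc20: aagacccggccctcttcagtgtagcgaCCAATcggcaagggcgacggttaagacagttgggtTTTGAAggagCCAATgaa
Cdk1: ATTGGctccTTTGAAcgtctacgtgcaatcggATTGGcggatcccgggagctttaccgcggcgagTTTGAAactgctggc
Ube2c: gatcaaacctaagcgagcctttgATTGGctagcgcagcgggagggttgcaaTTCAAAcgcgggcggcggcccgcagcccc
Mcm6: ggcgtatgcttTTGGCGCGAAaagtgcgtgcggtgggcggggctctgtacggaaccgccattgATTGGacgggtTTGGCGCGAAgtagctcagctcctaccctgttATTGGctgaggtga
In Kif11 the CHR begins 19 bases before the start and in Cdc20 18 bases before it. In Mcm6 a stretch with an E2F core on each strand, which overlap, begins at 109 and again at 46 bases before the start.

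A CHR was present in 20 of 27 mitotic members with a window (74.1%), in 2 of 16 replication members (12.5%) and in 20.2% of all 27025 genes with a window. Within 50 bases of the start or after it, the CHR was found in 19 of the 27 mitotic members (70.4%) and in 5.7% of all genes. An E2F core was present in 9 of the 16 replication members (56.2%), in 4 of the 27 mitotic members (14.8%) and in 10.9% of all genes. CCAAT, a common word, was in 20 of the 27 mitotic members (74.1%), in 10 of the 16 replication members (62.5%) and in 41.1% of all genes. Outside the members, an E2F core was present in 23 of 33 other replication genes (69.7%) and in 15 of 49 other mitotic genes (30.6%). A CHR was present in 29 of the 49 other mitotic genes (59.2%) and in 5 of the 33 other replication genes (15.2%). A match is a description of these letters and not a shown binding site.

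**Figure D1:**
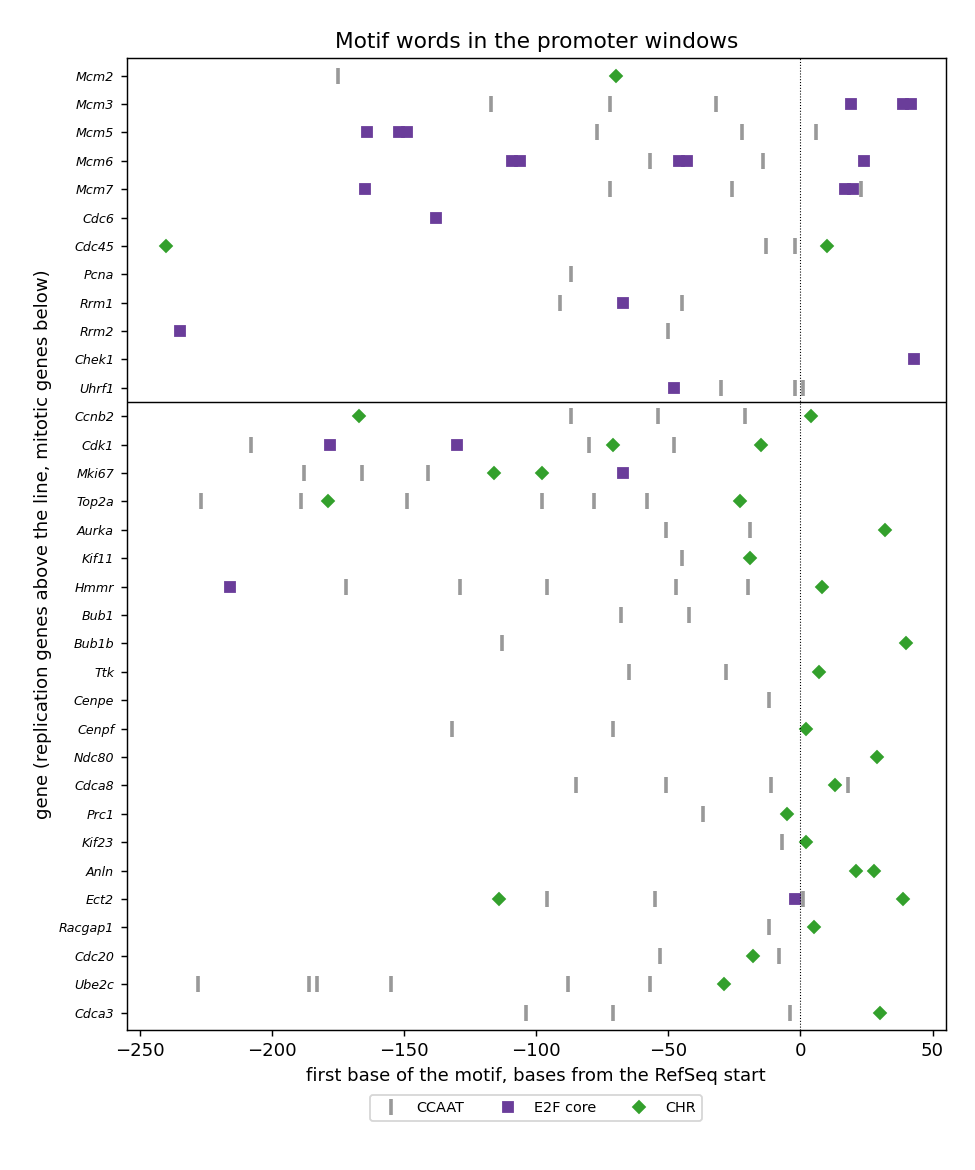
Positions of the words CCAAT (bars), E2F core (squares) and CHR (diamonds) in the RefSeq promoter windows of members that hold at least 1 of them, in bases from the start (dotted line), with the first listed window where a gene has more than 1. E2F cores are scattered over the windows of the replication genes, while most CHR words of the mitotic genes lie within 50 bases of the start or after it (19 of 27 mitotic genes with a window).

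Before the groups were compared, the arrays were set against each other, since they fell into 2 sets by correlation over all genes. Control 1, Tln1 vehicle 1 and 2 and Tln1 VPA 1 and 2 formed the first set, and control 2, Tln1 vehicle 3 and Tln1 VPA 3 formed the second. Correlations were 0.990 to 0.995 within the sets and 0.966 to 0.979 across them, and the axis that separates the sets held 65.0% of the variance. What separates them is not given in the labels. All 9 measured podocyte markers lay above the median gene level of 4.92, with array means of 7.11 to 8.99, and so did all 10 proximal tubule markers, with means of 10.4 to 12.1. Tln1 was at 8.97 and 8.64 in the control arrays, 8.95, 8.95 and 8.60 in Tln1 vehicle, and 8.76, 8.88 and 8.59 in Tln1 VPA, so it did not separate the groups in these isolates. Where its probe set lies relative to any deleted part is not stated. The Y-linked gene Eif2s3y was at 3.80 and 2.83 in the control arrays, 6.46, 7.71 and 2.91 in Tln1 vehicle, and 5.43, 6.51 and 2.69 in Tln1 VPA. It was high in the 4 Tln1 arrays of the first set and low in the other 4 arrays.

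All expression values below are log2 values made with RMA, and each difference is a difference of log2 values. Most of the genes were dim: 31 of the 50 members had a mean over all arrays below the median gene level, 7 of the replication genes and 24 of the mitotic genes. Levels of different probe sets are not compared with each other. In RNA of whole glomerular isolates, more cells in cycle and more RNA of a gene per cell cannot be told apart.

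The mean of the mitotic genes was lowest in control arrays, higher in Tln1 vehicle and highest in Tln1 VPA. It was 4.23 and 4.14 in the control arrays, 4.42, 4.30 and 4.32 in Tln1 vehicle, and 5.10, 4.85 and 4.63 in Tln1 VPA. The mean of the replication genes was 5.20 and 5.14 in the control arrays, 5.34, 5.28 and 5.26 in Tln1 vehicle, and 5.88, 5.57 and 5.35 in Tln1 VPA. In both lists no group overlapped another, and Tln1 VPA 1 was the highest array. As group means these are 4.19 ± 0.06 (SD, n = 2), 4.35 ± 0.07 (n = 3) and 4.86 ± 0.23 (n = 3) for the mitotic genes, and 5.17 ± 0.04, 5.29 ± 0.04 and 5.60 ± 0.27 for the replication genes. Since the genes were chosen with results of these arrays known, no p-value is given for these means.

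**Figure D2:**
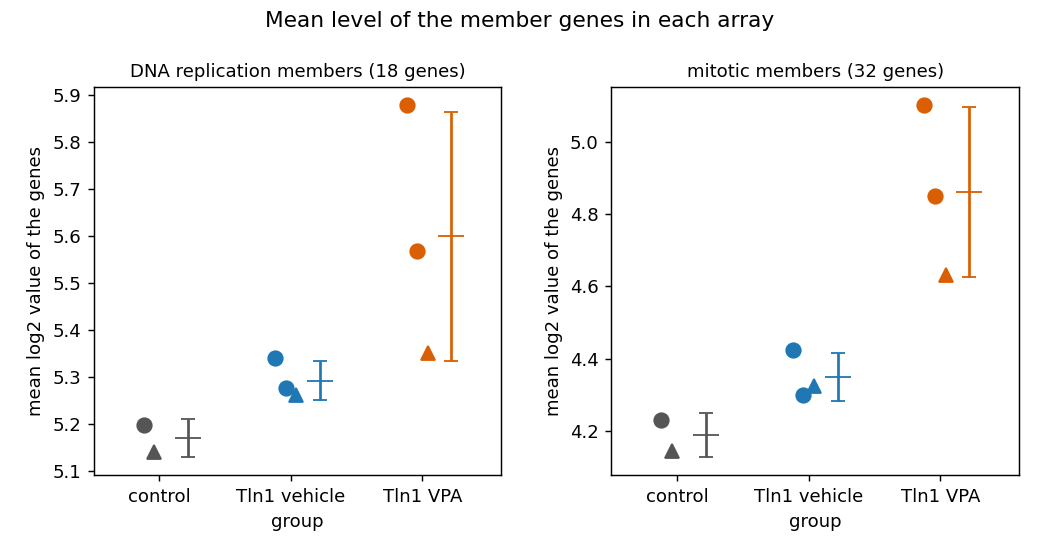
Mean log2 value of the 18 replication genes (left) and the 32 mitotic genes (right) in each array, with the group mean and SD beside the points; circles are arrays of the first set and triangles arrays of the second. All Tln1 VPA arrays lie above all Tln1 vehicle arrays, and these above both control arrays, with the triangle of Tln1 VPA (5.35 and 4.63) nearest to Tln1 vehicle.

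Some markers of other cells were also higher in Tln1 VPA. The 6 measured markers of injured tubule cells were all higher in Tln1 VPA than in Tln1 vehicle, with array means of 5.55 and 5.52 in the control arrays, 6.15, 5.57 and 6.09 in Tln1 vehicle, and 7.07, 6.80 and 6.49 in Tln1 VPA. Their groups did not overlap, and Tln1 VPA 1 was the highest array, as for the members. All 7 parietal epithelial markers were higher too, with means of 6.91 and 6.81, then 6.95, 6.82 and 6.80, then 7.33, 7.08 and 7.08. The parietal means of Tln1 vehicle and Tln1 VPA did not overlap either, and Tln1 VPA 1 was again the highest array. Those of control and Tln1 vehicle did overlap. Of 12 macrophage and myeloid markers 11 were higher, with means of 5.06 and 5.02 in the control arrays, 4.74, 4.69 and 5.35 in Tln1 vehicle, and 5.21, 4.86 and 5.88 in Tln1 VPA. Here Tln1 VPA 3 was the highest array, which was the lowest Tln1 VPA array for both member lists. The part of these cells in the differences of the cell cycle genes was not tested.

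The defining markers were read one by one. Havcr1 (Kim-1), an injury marker of the proximal tubule, was at 5.23, 4.03 and 3.20 in Tln1 vehicle and 6.53, 6.21 and 3.99 in Tln1 VPA, and Lcn2 was at 8.19, 6.92 and 8.49 and then 9.07, 8.76 and 9.27. Both were higher in each Tln1 VPA array than in the Tln1 vehicle array of its number. The macrophage gene Adgre1 read 3.36 and 3.92 across the control arrays, 3.25, 3.03 and 4.34 across Tln1 vehicle, and 3.28, 3.21 and 4.91 across Tln1 VPA, below the median gene level of 4.92 throughout and highest in the second array set. Of the 12 macrophage and myeloid markers only 5 had a mean below that level. All 9 lymphocyte markers lay below the median gene level, with array means of 3.53 to 3.77 and no order by group. Markers of the podocyte, the glomerular endothelium and the mesangium were lower in Tln1 VPA than in Tln1 vehicle by means of -0.26, -0.29 and -0.31. The endothelial mean was -0.08 in the first array set and -0.71 in the second, which holds a single array per group, and no gene of these 3 lists passed a limma adjusted p of 0.05.

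**Figure D3:**
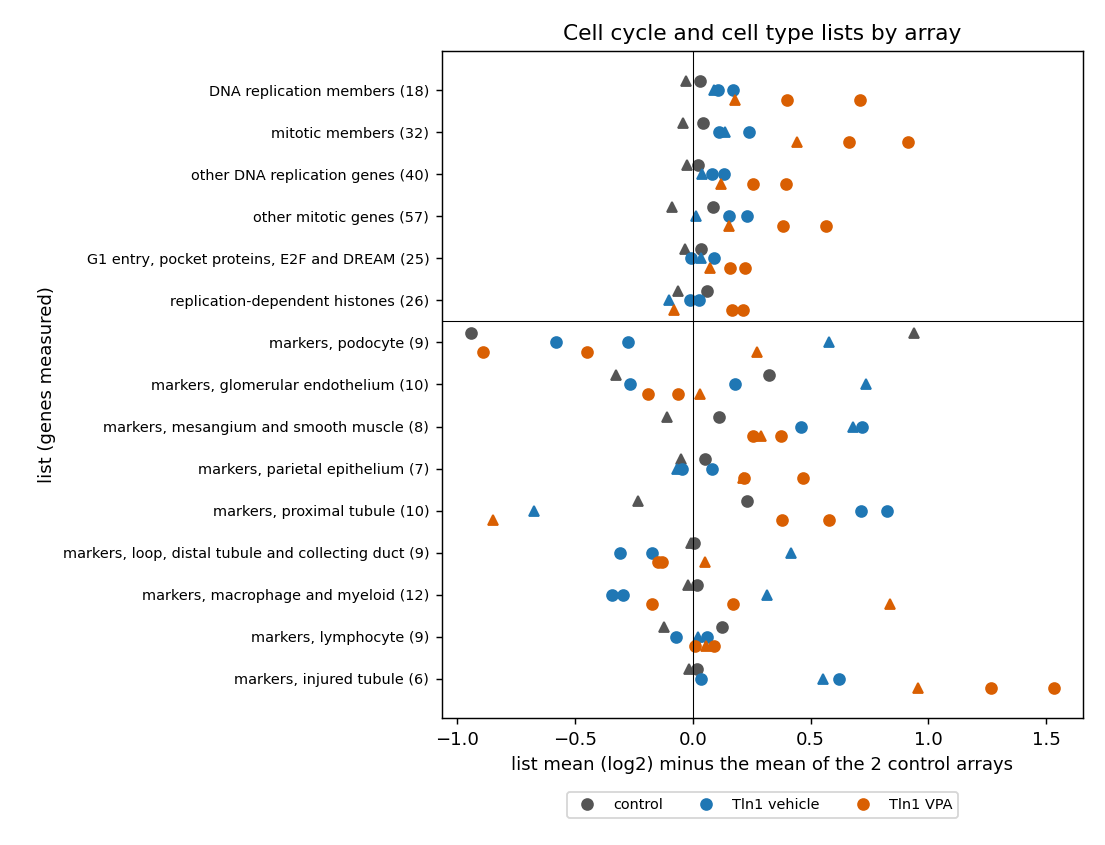
List means in each array on the log2 scale minus the mean of the control arrays, for the members, other cell cycle lists and markers of cell types, with the number of genes measured; circles are arrays of the first set and triangles arrays of the second. The members and the injured tubule markers both run from control over Tln1 vehicle to Tln1 VPA without overlap between Tln1 vehicle and Tln1 VPA. The parietal epithelial markers are also higher in Tln1 VPA than in Tln1 vehicle without overlap, but control and Tln1 vehicle overlap. The podocyte markers follow the array sets.

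Gene by gene, the order control, Tln1 vehicle, Tln1 VPA of the group means held in 36 of the 50 members, 13 replication and 23 mitotic genes, against 23.0% of all genes. As all 50 members were higher in Tln1 VPA than in Tln1 vehicle, this count is that of members higher in Tln1 vehicle than in control. By that measure the share over all genes was 55.6%. In the other 14 members the Tln1 vehicle mean lay below the control mean; they include Ndc80, Kif20a, Birc5, Foxm1 and Bub1b of the mitotic genes and Cdc45, Gins2, Ccne1, E2f1 and Tyms of the replication genes. Tln1 VPA 1 held the highest value of all 8 arrays in 35 members. A control array held the lowest value in 33 members, control 1 in 15 and control 2 in 18. These counts were not made over all genes. The median over all genes was also highest in Tln1 VPA 1 (4.997) and lowest in control 2 (4.823).

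**Figure D4:**
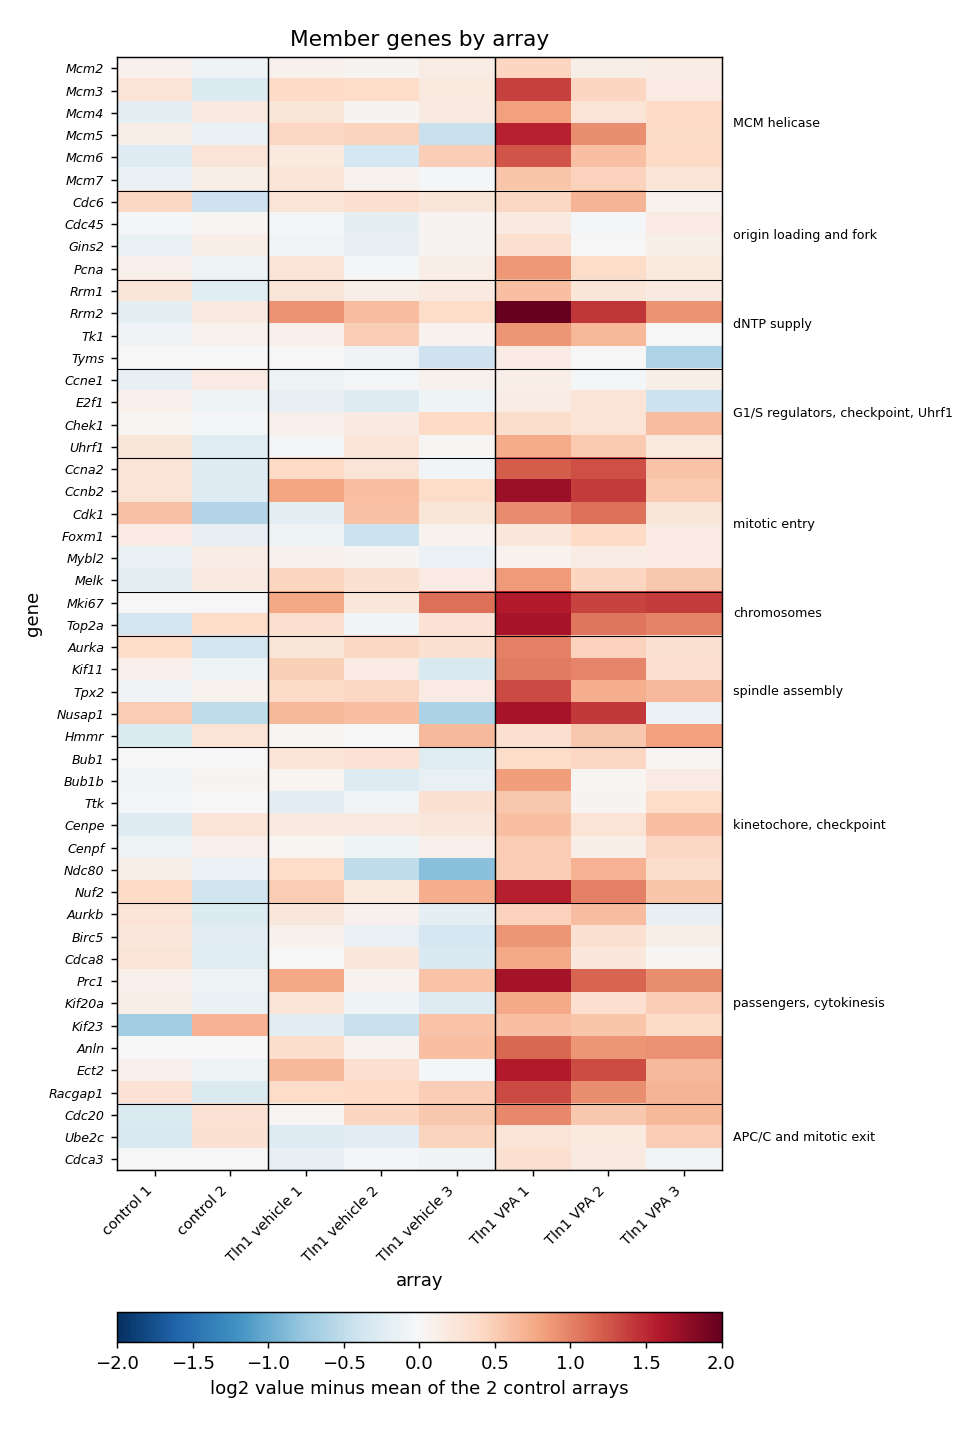
Each member (rows, grouped by role) in each array (columns), as the log2 value minus the mean of the 2 control arrays (colour). The Tln1 VPA columns are mostly red with the strongest colour in Tln1 VPA 1, while Tln1 VPA 3 is paler. Tln1 VPA 1 held the highest value in 35 of 50 genes and also the highest median over all genes.

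The comparison of Tln1 vehicle with control asks what differs in glomeruli of the podocyte Tln1 line. Differences were small: 36 of the 50 members were higher in Tln1 vehicle, against 55.6% of all genes, with a mean difference of 0.12 for the 18 replication genes and 0.16 for the 32 mitotic genes. No member and no gene at all (0%) had a limma adjusted p below 0.05; the smallest adjusted p among members was 1. At an unadjusted p below 0.05, only Mki67 was higher, beside 0.78% of all genes. Each array set holds a single control array. In the first array set the mean over all members was 0.12 with 31 higher, beside 46% of all genes. In the second set it was 0.16 with 30 higher, beside 45.4%. With the array set as a block 3 members were higher at an unadjusted p below 0.05, beside 3.01% of all genes, and with the array number as a block 8, beside 5.65%.

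Mki67, the gene of the Ki-67 proliferation antigen that coats mitotic chromosomes, read 5.37 and 5.35 in the control arrays and 6.14, 5.59 and 6.46 in Tln1 vehicle. The groups did not overlap, with a difference of 0.70 (SE 0.24). Rrm2, the regulated small subunit of ribonucleotide reductase, read 3.52 and 3.87 in the control arrays and 4.59, 4.31 and 4.06 in Tln1 vehicle, a difference of 0.63 (SE 0.31). Rrm2 has 2 probe sets that carry its symbol alone, and these values are those of the probe set with the higher mean. Ccnb2, a B-type cyclin of mitosis, was at 4.98 and 4.46 in the control arrays and 5.52, 5.32 and 5.09 in Tln1 vehicle (0.59, SE 0.34). The groups of Ccnb2 did not overlap either, and its difference was 0.33 without control 2.

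In all, 8 members lay higher in every Tln1 vehicle array than in both control arrays (Rrm2, Tk1, Chek1, Ccnb2, Mki67, Tpx2, Anln and Racgap1), against 4.78% of all genes. The reverse separation was seen for 1 member, Cdca3, against 3.59% of all genes. Its values were 4.51 and 4.48 in the control arrays and 4.34, 4.45 and 4.43 in Tln1 vehicle. The lowest differences were those of Ndc80, an outer kinetochore protein that binds microtubules, at -0.32 (SE 0.32), of the G1/S transcription factor E2f1 at -0.17 (SE 0.21) and of Tyms, thymidylate synthase, at -0.16 (SE 0.24). Each of these has an SE about as large as its difference or larger.

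The comparison of Tln1 VPA with Tln1 vehicle is the only one between groups with the same genotype label, and it asks what differs under valproic acid. All 50 members were higher in Tln1 VPA, against 51.3% of all genes, by a mean of 0.31 for the replication genes and 0.51 for the mitotic genes. Over all members the median difference was 0.35, beside 0.00 over all genes tested. No single gene passed: the limma adjusted p was 1 for every member, and 0 of 22180 genes (0%) fell below 0.05. At an unadjusted p below 0.05, 17 members were higher, 3 replication and 14 mitotic genes, and none was lower, beside 0.834% of all genes higher and 0.428% lower. Whether the mitotic genes differed more than the replication genes was not tested.

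Groups without overlap were seen for 13 members, 1 replication and 12 mitotic genes, against 1.98% of all genes. The replication gene is Mcm4. The mitotic genes are Ccna2, Foxm1, Mki67, Top2a, Tpx2, Cenpe, Cenpf, Birc5, Prc1, Kif20a, Anln and Racgap1.

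The size of the difference depended on the array. In the first set the mean over all members was 0.54, and all 50 were higher, beside 51.6% of all genes. In the second set, a single array per group, it was 0.23 with 38 higher, 10 of 18 replication genes (mean 0.09) and 28 of 32 mitotic genes (mean 0.31). Over all genes 44.2% were higher in the second set. Set as same-numbered arrays, 49, 48 and 38 members were higher in Tln1 VPA 1, 2 and 3, and 35 were higher in all 3 pairs, 9 replication and 26 mitotic genes, against 12.3% of all genes. In the pair numbered 3, 4 members had equal values in both arrays, as had 12% of all genes to 4 decimals. Without Tln1 VPA 1 the mean of the replication genes was 0.17 and that of the mitotic genes 0.39, and the number of members with an unadjusted p below 0.05 went from 17 to 8, beside 0.437% of all genes. That number was 10 without Tln1 vehicle 2, beside 0.415% of all genes, and 26 without Tln1 VPA 3, beside 1.35%. With the array set as a block it was 26, beside 3.32% of all genes, and with the array number as a block it was 22, beside 1.98% of all genes.

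**Figure D5:**
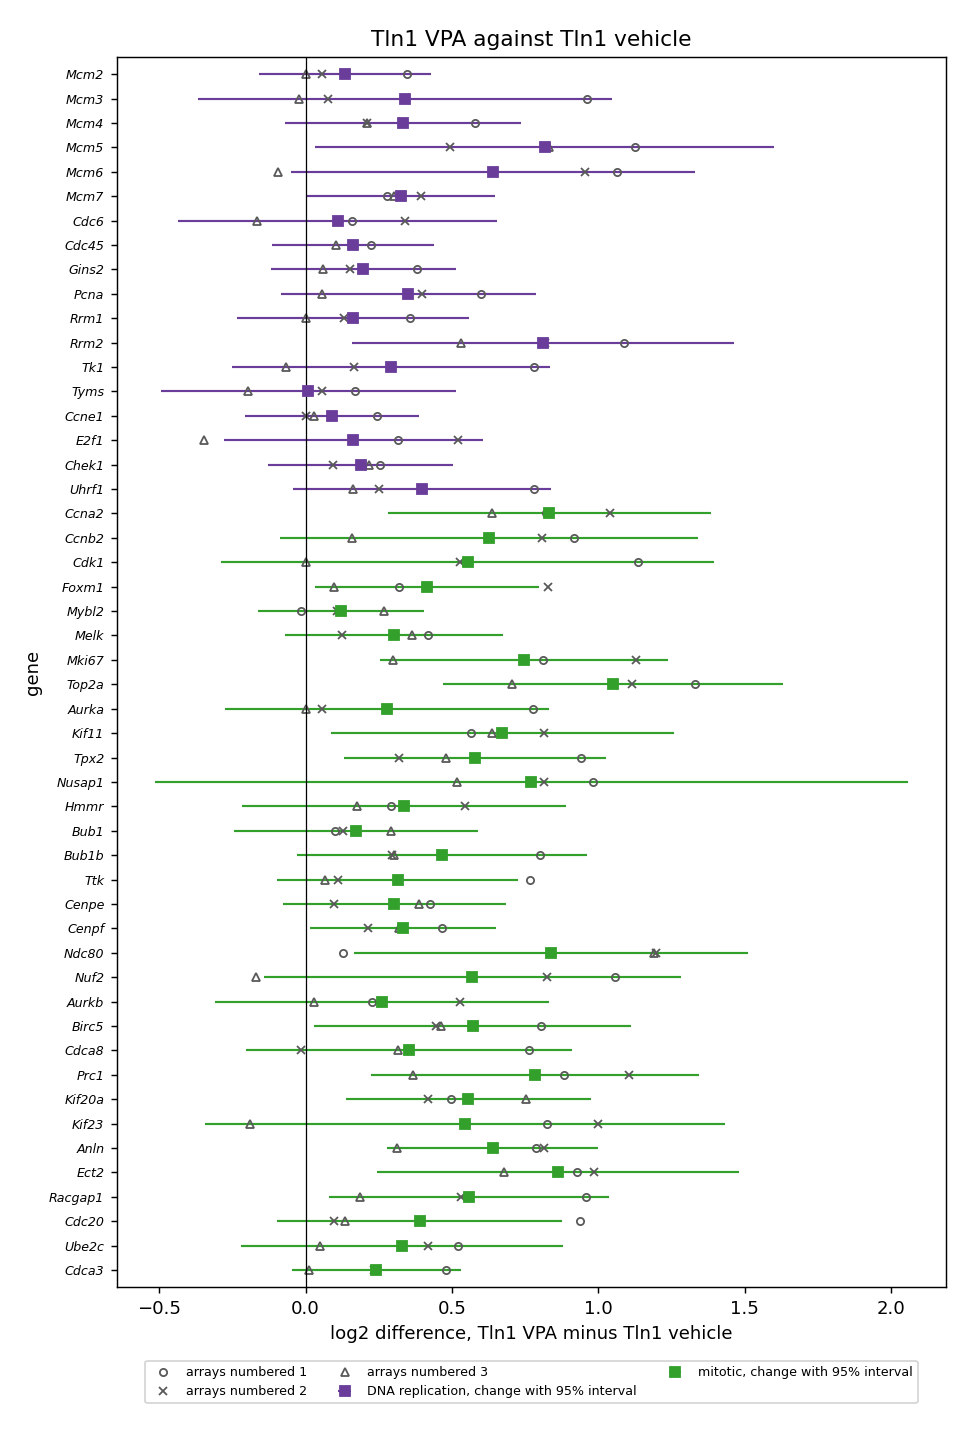
Difference of Tln1 VPA minus Tln1 vehicle for each member on the log2 scale, as the fitted value with its 95% interval (squares, purple for replication and green for mitotic genes) and as the difference of same-numbered arrays (open circle 1, cross 2, triangle 3). Every square lies above 0, from 0.01 for Tyms to 1.05 for Top2a, and the triangles of the second array set often lie nearest to 0.

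Among the replication genes, the helicase subunits Mcm2 to Mcm7 were all higher, by 0.13 to 0.82. Mcm5 read 5.46, 5.48 and 4.60 in Tln1 vehicle and 6.58, 5.98 and 5.43 in Tln1 VPA, a difference of 0.82 (SE 0.34). The Tln1 VPA array of the second set lay just under the higher Tln1 vehicle arrays, and the difference was 0.52 without Tln1 VPA 1 and 0.53 without Tln1 vehicle 3. Mcm7 was at 6.20, 6.0 and 5.89 in Tln1 vehicle and 6.48, 6.39 and 6.20 in Tln1 VPA (0.33, SE 0.14). The groups of Mcm7 met at 6.20, and its difference was 0.34 in the first array set against 0.30 in the second.

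Genes of origin loading and the fork differed less, by 0.11 to 0.35 over 4 genes. Pcna, the sliding clamp, read 7.85, 7.56 and 7.72 in Tln1 vehicle and 8.45, 7.96 and 7.78 in Tln1 VPA, a difference of 0.35 (SE 0.19). Its difference was 0.50 in the first array set against 0.06 in the second, and 0.16 without Tln1 VPA 1. Gins2, a subunit of the GINS complex, read 4.68, 4.57 and 4.79 in Tln1 vehicle and 5.06, 4.72 and 4.85 in Tln1 VPA, with groups that overlap (0.20, SE 0.14; 0.11 without Tln1 VPA 1). Cdc6, which loads the helicase, was at 0.11 (SE 0.23), and at -0.17 in the second set.

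Rrm2 had the largest difference among the genes of deoxynucleotide supply. It read 5.68, 5.13 and 4.59 in Tln1 VPA beside the 4.59, 4.31 and 4.06 in Tln1 vehicle given above, a difference of 0.81 (SE 0.28). The lowest Tln1 VPA array equalled the highest Tln1 vehicle array at 2 decimals, and the difference was 0.54 without Tln1 VPA 1. With the 2 probe sets of Rrm2 averaged its difference was 0.43, the lowest over all alternatives. Tk1, the thymidine kinase of S phase, was at 5.52, 5.91 and 5.49 in Tln1 vehicle and 6.30, 6.07 and 5.43 in Tln1 VPA (0.29, SE 0.23). Its difference was 0.47 in the first array set against -0.07 in the second, and 0.11 without Tln1 VPA 1. Tyms, which makes thymidylate, differed by 0.01 (SE 0.22), with a 95% interval of -0.49 to 0.51, so these arrays leave changes of that size unresolved for it.

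The G1/S regulators differed by 0.09 to 0.40. Uhrf1, which guides maintenance DNA methylation to newly copied DNA, read 5.12, 5.43 and 5.19 in Tln1 vehicle and 5.90, 5.68 and 5.35 in Tln1 VPA (0.40, SE 0.19). Chek1, the kinase of the replication checkpoint, read 3.30, 3.38 and 3.60 in Tln1 vehicle and 3.56, 3.47 and 3.81 in Tln1 VPA (0.19, SE 0.14). In both genes the groups overlap, and the difference of Chek1 was 0.088 without Tln1 VPA 3. Ccne1, the E-type cyclin that was measured, differed by 0.09 (SE 0.13).

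Of the genes of mitotic entry, Ccna2 differed most. Cyclin A2 acts in S phase and at mitotic entry, and its gene read 5.01, 4.87 and 4.56 in Tln1 vehicle and 5.83, 5.91 and 5.20 in Tln1 VPA, a difference of 0.83 (SE 0.24). All 3 Tln1 VPA arrays were above all Tln1 vehicle arrays, and the difference was 0.93 in the first array set against 0.64 in the second. Foxm1, a transcription factor of mitotic genes, was at 3.62, 3.29 and 3.79 in Tln1 vehicle and 3.93, 4.12 and 3.89 in Tln1 VPA (0.41, SE 0.16). Its partner in that control, Mybl2, differed by 0.12 (SE 0.12). Cdk1, the mitotic kinase, differed by 0.55 (SE 0.36), with equal values in both arrays numbered 3 and a difference of 0.35 without Tln1 vehicle 1.

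Top2a, the topoisomerase that untangles sister chromatids, had the largest difference of all members. It read 4.29, 3.92 and 4.25 in Tln1 vehicle and 5.62, 5.03 and 4.96 in Tln1 VPA, a difference of 1.05 (SE 0.25) that was 1.22 in the first array set against 0.70 in the second. Mki67 read 6.95, 6.72 and 6.75 in Tln1 VPA, above its Tln1 vehicle values of 6.14, 5.59 and 6.46, by 0.75 (SE 0.21). The Tln1 VPA arrays of Mki67 lay close together while the Tln1 vehicle arrays spread wider, and the difference was 0.97 in the first array set against 0.30 in the second.

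The 5 genes of spindle assembly were higher by 0.28 to 0.77. Tpx2, which activates Aurka on the spindle, read 4.82, 4.85 and 4.59 in Tln1 vehicle and 5.76, 5.17 and 5.08 in Tln1 VPA (0.58, SE 0.19), and the groups did not overlap. Without Tln1 VPA 1 its difference was 0.37. Kif11, the motor that pushes the spindle poles apart, read 4.67, 4.36 and 3.90 in Tln1 vehicle and 5.24, 5.17 and 4.53 in Tln1 VPA (0.67, SE 0.25). The groups of Kif11 overlap by the array of the second set, yet its difference was nearly the same in both sets (0.69 and 0.64). Nusap1, a microtubule bundling protein, had the largest difference of this role and the widest error of all members (0.77, SE 0.55). It read 3.55 in Tln1 vehicle 3 and 4.07 in Tln1 VPA 3, below every array of the first set, and its difference was 0.35 without Tln1 vehicle 3 and 0.44 without Tln1 VPA 1.

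The 7 genes of the kinetochore and spindle checkpoint all had means below the median gene level and were higher by 0.17 to 0.84. Ndc80 read 4.50, 3.63 and 3.30 in Tln1 vehicle and 4.63, 4.83 and 4.49 in Tln1 VPA, a difference of 0.84 (SE 0.29). The Tln1 VPA arrays lay close together and the Tln1 vehicle arrays far apart, and against the control arrays (4.26 and 4.01) the difference of Tln1 VPA was 0.51. Cenpf, a large kinetochore protein of late S phase and mitosis, was at 4.34, 4.22 and 4.40 in Tln1 vehicle and 4.80, 4.43 and 4.72 in Tln1 VPA (0.33, SE 0.14). Its difference was 0.34 in the first array set against 0.32 in the second.

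Chromosomal passengers and cytokinesis genes, the largest role with 9 measured genes, held 6 of the 17 members higher at an unadjusted p below 0.05. The share over all genes was 0.834%. Anln, anillin of the contractile ring, read 4.21, 3.93 and 4.45 in Tln1 vehicle and 5.0, 4.74 and 4.77 in Tln1 VPA (0.64, SE 0.16). Prc1, which bundles the microtubules of the spindle midzone, read 4.80, 4.09 and 4.59 in Tln1 vehicle and 5.69, 5.19 and 4.96 in Tln1 VPA (0.78, SE 0.24). In both genes every Tln1 VPA array was above every Tln1 vehicle array, with smaller differences in the second set (0.31 and 0.37) than in the first (0.80 and 0.99). Ect2, the exchange factor that starts the cleavage furrow, read 5.63, 5.29 and 4.95 in Tln1 vehicle and 6.56, 6.27 and 5.63 in Tln1 VPA (0.86, SE 0.27). Racgap1, the centralspindlin subunit that binds Ect2, differed by 0.56 (SE 0.21), the kinesin Kif20a by 0.56 (SE 0.18) and Birc5, survivin of the passenger complex, by 0.57 (SE 0.23). Without Tln1 VPA 1 the difference of Birc5 was 0.34.

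The genes of the APC/C and mitotic exit differed by 0.24 to 0.39. Cdc20, the activator of the APC/C, read 4.72, 5.13 and 5.23 in Tln1 vehicle and 5.66, 5.23 and 5.36 in Tln1 VPA (0.39, SE 0.21). Its difference was 0.52 in the first array set, 0.13 in the second and 0.24 without Tln1 vehicle 1. Cdca3, a trigger of mitotic entry, was at 4.34, 4.45 and 4.43 in Tln1 vehicle and 4.82, 4.68 and 4.44 in Tln1 VPA (0.24, SE 0.12). Its groups overlapped through Tln1 VPA 3, with a difference of 0.36 within the first array set but 0.01 within the second, and 0.16 without Tln1 VPA 1.

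Against the control arrays, where the genotype label and the drug differ together, Tln1 VPA was higher in 48 of 50 members, against 56.8% of all genes. The mean difference was 0.43 for the replication genes and 0.67 for the mitotic genes, and only E2f1 (-0.01, SE 0.21) and Tyms (-0.15, SE 0.24) were not higher. This comparison shares its Tln1 VPA arrays with the one against Tln1 vehicle and its control arrays with that of Tln1 vehicle against control. No member passed (0% of all genes; smallest limma adjusted p among members 1.00), 20 were higher at an unadjusted p below 0.05 against 1.23% of all genes, and 28 did not overlap, 8 replication and 20 mitotic genes, against 5.57% of all genes. In the first set the mean over all members was 0.67 with 50 higher, beside 47.8% of all genes, and in the second 0.39 with 43 higher, beside 44.3%. The values of both sets, here and for single genes below, rest on a single control array each. The number of members at an unadjusted p below 0.05 was 27 with the array set as a block, beside 4.06% of all genes, and 32 with the array number as a block, beside 6.94%. It was 13 without Tln1 VPA 1, beside 0.771% of all genes.

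The largest differences from control were those of Mki67 (1.45, SE 0.24), Rrm2 (1.44, SE 0.31) and Prc1 (1.26, SE 0.27), whose control arrays read 4.12 and 3.92, and the 3 smallest were those of Tyms, E2f1 and Ccne1 (0.08, SE 0.14). For Mki67 the difference was 1.46 in the first array set against 1.40 in the second, and it lay between 1.36 and 1.59 over all alternatives. With the mean of the Y-linked genes as a covariate, Mki67 was the only member below a limma adjusted p of 0.05 (1.59, adjusted p = 0.0473; 0.0947% of all genes), beside adjusted p of 0.229 to 1 over the other alternatives that gave a test. Rrm2 differed by 1.89 in the first array set against 0.72 in the second, and Top2a, at 1.23 (SE 0.28), by 1.72 and 0.62. With the 2 probe sets of Rrm2 averaged its difference from control was 0.68. Anln was more even, with 0.98 (SE 0.17) over all arrays, 1.01 in the first array set against 0.92 in the second.

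Members with the promoter words of their class were set beside those without, as a description. In Tln1 VPA against Tln1 vehicle the 9 replication genes with an E2F core differed by a mean of 0.42 and the 7 without by 0.17. Against control these means were 0.65 and 0.18. Among the mitotic genes the 20 with a CHR differed by a mean of 0.55 and the 7 without by 0.40 between the Tln1 groups. The medians between the Tln1 groups were 0.34 with an E2F core and 0.16 without, and 0.55 with a CHR and 0.30 without. The ranges of genes with and without the word overlapped in both classes, and these contrasts were not tested. Tyms and Ccne1, with the 2 smallest differences between the Tln1 groups, are among the replication genes without an E2F core in the window. So are Mcm2, Cdc45, Pcna, Tk1 and E2f1. Cdc6, with the next smallest difference (0.11), does hold an E2F core.

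Other genes of the same processes had smaller mean differences than the members. The members and these lists were chosen with results of these arrays known. The contrast is therefore a description only, and it was not tested. In Tln1 VPA against Tln1 vehicle, 36 of 40 other replication genes were higher, by a mean of 0.17 and a median of 0.19, and none had an unadjusted p below 0.05. Of 57 other mitotic genes 52 were higher, by a mean of 0.23, and 5 had an unadjusted p below 0.05. In the list of G1 entry, pocket proteins, E2F and DREAM 21 of 25 were higher by a mean of 0.11, with 2 at that threshold. Replication-dependent histones, whose messages are made in S phase and mostly lack a poly(A) tail, were higher in 15 of 26 by a mean of 0.13, with 2 at that threshold. Over all genes 51.3% were higher in this comparison, and 0.834% were higher at an unadjusted p below 0.05. None of the genes in these lists passed a limma adjusted p of 0.05.

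By name, the smallest p among the other mitotic genes was that of the mitotic kinase gene Pbk, which read 4.41, 3.98 and 4.26 in Tln1 vehicle and 5.45, 5.01 and 4.60 in Tln1 VPA (0.80, SE 0.23). Ckap2, a spindle protein, differed by 0.42 (SE 0.13), and Ncaph, a condensin subunit, by 0.62 (SE 0.25). Among replication genes Ticrr, which helps to fire origins, differed by 0.29 (SE 0.13), the maintenance methyltransferase Dnmt1 by 0.25 (SE 0.12) and the polymerase subunit Pole by 0.35 (SE 0.18), and Pole was at -0.06 in the second set. E2f8, an E2F that represses its targets, differed by 0.49 (SE 0.17; 0.29 without Tln1 VPA 1), the pocket protein Rbl1 by 0.29 (SE 0.12) and Rbbp4 of the MuvB core by 0.20 (SE 0.12; 0.13 without Tln1 vehicle 3). H2ac10 and H4c12, histone genes, differed by 0.70 (SE 0.17) and 0.41 (SE 0.11). H2bc18 was at 0.44 (SE 0.29), with -0.15 in the second set.

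In the comparison with control, Tln1 vehicle was higher in 31 of 40 other replication genes, 44 of 57 other mitotic genes, 13 of 25 G1 and DREAM genes and 12 of 26 histones. The share over all genes was 55.6%. Tln1 VPA was higher than control in 39, 55, 18 and 18 of them, beside 56.8% of all genes.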

How the data were processed

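The authors deposited log2 expression values per probe set, for which the submitters' processing notes list RMA, and limma with no role; no version, annotation or background setting is stated there. The table holds 41345 probe sets with values from 1.49 to 13.9. Of these, 23521 carry 1 gene symbol in the platform annotation, 1814 several and 16010 none, and probe sets with several or none were left out. Per symbol the probe set with the highest mean over the 8 arrays was kept, which left 22180 genes.

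The main test was limma (version 3.58.1, R 4.3.3) with lmFit and eBayes on these values over all genes and all arrays with 3 groups, and p-values were adjusted over all genes by Benjamini-Hochberg. No filter on low values was used. The members and all gene lists were chosen with earlier results of these data known. Values in every array are given for the 2 members of each role with the smallest p in Tln1 VPA against Tln1 vehicle, for Mki67 and Top2a, and each comparison adds the 3 largest and 3 smallest differences; from each pathway list the 3 genes with the smallest p are named. Other members were named after their values were seen. Array sets were found by clustering the arrays on their correlations. The labels number the arrays of each group. Deviations from the group means of Tln1 vehicle and Tln1 VPA arrays with the same number correlated at 0.570, 0.609 and 0.787 over genes. Same-numbered Tln1 arrays also lie in the same array set, so these correlations cannot show that the numbers pair arrays. The pairs by number, and the fits with the array number as a block, therefore rest on an assumption. Deviations of control 2, in the second set, and of the Tln1 arrays numbered 2, in the first, correlated at -0.591 and -0.496. The fits were tested on simulated data. The number of arrays limits the precision, and probe brightness against background is not known from these values.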

Additional observations from a re-analysis of the deposited data

How the results depend on the processing

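Each value was recomputed with the replicate block, the array set as a block, each array set alone, probe sets averaged per gene, genes above the median level, quantile normalization, median centring, other eBayes settings, the arrays of 2 groups, a Y-linked covariate and without each array. Causes of the changes below were not tested. Over these alternatives the mean difference of replication and mitotic genes stayed above 0, at 0.04 to 0.19 and 0.09 to 0.31 for Tln1 vehicle against control, 0.09 to 0.43 and 0.31 to 0.63 for Tln1 VPA against Tln1 vehicle, and 0.21 to 0.55 and 0.49 to 0.88 for Tln1 VPA against control. The second array set alone gave the lowest values of the latter pair, 0.089 and 0.31 against Tln1 vehicle and 0.21 and 0.49 against control. Genes above the median level gave 0.88 for the 8 mitotic genes left, and the Y-linked covariate called 1 member, Mki67, against control.

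The replicate block, with the array number as block, gave means of 0.19 and 0.23, 0.31 and 0.51, and 0.50 and 0.74 in the 3 comparisons, in that order. It moved the members higher at an unadjusted p below 0.05 from 1 to 8, 17 to 22 and 20 to 32. Over all genes that share also rose, from 0.78% to 5.65%, 0.834% to 1.98% and 1.23% to 6.94%. The block called no member after adjustment. That the numbers pair arrays is an assumption, and this block joins control 2 to Tln1 arrays of the other array set.

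Without 1 array at a time, the means of replication and mitotic genes ran from 0.09 to 0.15 and 0.12 to 0.21, from 0.17 to 0.43 and 0.39 to 0.63, and from 0.29 to 0.55 and 0.55 to 0.79. Members higher ran from 31 to 37, 48 to 50 and 46 to 50. Shares of all genes higher ran from 39.3% to 65.1%, 41.2% to 62.2% and 39.8% to 65.8%. Genes above the median level were picked by a mean that includes the Tln1 VPA arrays. Among them 4 and 8 of 19 members were at an unadjusted p below 0.05 for Tln1 VPA against Tln1 vehicle and against control. The shares of all genes in that fit were 0.929% and 1.43%.

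Of 61 differences of named genes, 50 kept their sign throughout. For Tln1 vehicle against control, E2f1 was 0.011 in the second set, Tk1 -0.036 with the Y-linked covariate and Tyms 0.0175 with the replicate block. For Tln1 VPA against Tln1 vehicle, the second set gave -0.17 for Cdc6, -0.15 for H2bc18, -0.059 for Pole, -0.066 for Tk1 and -0.20 for Tyms; quantile normalization gave -0.012 for Tyms. Without 1 array Cdc6 ran from -0.037 to 0.27 and Tyms from -0.15 to 0.24. For Tln1 VPA against control, Ccne1 was -0.058 in the second set and -0.094 to 0.25 without 1 array, E2f1 was 0.08 with the replicate block, 0.11 in the first set and -0.15 to 0.21 without 1 array, and Tyms was 0.027, 0.074 and -0.31 to 0.079 in the same fits.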

Other observations

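Markers of the mesangium and smooth muscle, outside the cell cycle genes, were higher in Tln1 vehicle than in control for 8 of 8 measured genes, by a mean of 0.62 on the log2 scale, with 0.48 in the first array set against 0.79 in the second. Between the Tln1 groups 7 of the 8 were lower under valproic acid, by a mean of -0.31. The glomerular endothelium differed between the array sets, with a mean of -0.37 in the first and 1.06 in the second for Tln1 vehicle against control. No gene of either list had a limma adjusted p below 0.05.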
